A study of Mus musculus with 18 samples.

Results

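Myelin and oligodendrocyte genes were followed in the mouse striatum through 9 genes, Mbp, Mog, Mag, Mobp, Cnp, Mal, Cldn11, Olig1 and Sox10. The members were the probe sets whose annotation held a single gene symbol that was one of these names. This gave 23 probe sets of 22690 on the array. Of these, 22 passed a filter on dim probe sets (a log2 value above 4 on at least 3 arrays), which 12674 probe sets of 7583 genes passed in the whole table. Mbp had 8 probe sets, Mobp, Cnp and Sox10 had 3 each, Mal had 2, and Mog, Mag, Cldn11 and Olig1 had 1 each.

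The study measured gene expression on Affymetrix arrays in the striatum, with the nucleus accumbens, of 18 mice, each array being 1 animal. Littermates aged 10 to 20 weeks were either controls or mutants in a study of the loss of Camk4 (CaMKIV, a calcium- and calmodulin-dependent kinase of neurons). Each was injected intraperitoneally, with saline or with cocaine at 25 mg/kg, and killed 1 h later. The groups were control saline (n = 3), control cocaine (n = 6), mutant saline (n = 3) and mutant cocaine (n = 6). How the Camk4 allele was made, and in which cells it was lost, is not given in the sources used here. The animals' titles carry Arabic numerals for 12 mice, 3 in each group, and Roman numerals for 6 mice, 3 of each genotype, all after cocaine. Group and genotype were taken from the titles, since the free-text descriptions of many samples name another group.

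Oligodendrocytes wrap axons in myelin, a stack of membrane that speeds conduction and supplies the axon with fuel. In the striatum they sit in the fibre bundles of the internal capsule that cross the grey matter, and between neurons. Mbp and Mobp encode basic proteins that hold the cytoplasmic faces of compact myelin together, Mal a proteolipid of its lipid rafts, and Cldn11 the claudin of its tight junctions. Mog lies on the outermost face of the sheath, Mag faces the axon, and Cnp is a cyclic nucleotide phosphodiesterase of non-compact myelin. Olig1 and Sox10 are transcription factors of the lineage, which are also made in its precursors, and Sox10 together with Myrf drives the myelin genes in mature cells.

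Because the members were followed as a group that may move together, the windows around their start sites were read for short motifs. RefSeq windows (GRCm38.p6, 250 bases before to 50 bases after the start site) matched 6 of the 9 genes with 8 windows, 3 of them for Mag. Windows of Mbp, Olig1 and Sox10 were not used here. The 4 windows shown are those of Mog and Cldn11, whose levels went together most closely over animals, and those of Mobp and Cnp. Some probe sets of Mobp, and some of Cnp, went different ways over all 18 animals. Without mutant cocaine replicate 5, an array set apart below, their correlations were 0.47 and 0.41 for Mobp and 0.75 and 0.78 for Cnp. Capitals mark ACAAAG or ACAATG, core motifs of Sox factors, read on either strand, so that CTTTGT is ACAAAG on the other strand.
Mog, chr17:37023349-37023648, minus strand: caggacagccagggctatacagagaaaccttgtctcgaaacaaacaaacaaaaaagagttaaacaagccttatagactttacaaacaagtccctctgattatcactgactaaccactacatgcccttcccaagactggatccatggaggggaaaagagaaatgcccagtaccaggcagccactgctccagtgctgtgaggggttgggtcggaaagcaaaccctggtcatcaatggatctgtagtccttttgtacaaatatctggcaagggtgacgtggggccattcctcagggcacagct
Cldn11, chr3:31149670-31149969, plus strand: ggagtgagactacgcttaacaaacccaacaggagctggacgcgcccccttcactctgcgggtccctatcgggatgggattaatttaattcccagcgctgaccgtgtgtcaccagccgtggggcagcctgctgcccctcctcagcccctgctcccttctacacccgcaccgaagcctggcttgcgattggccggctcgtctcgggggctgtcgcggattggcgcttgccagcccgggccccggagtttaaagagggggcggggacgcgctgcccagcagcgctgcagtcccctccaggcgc
Mobp, chr9:120149492-120149791, plus strand: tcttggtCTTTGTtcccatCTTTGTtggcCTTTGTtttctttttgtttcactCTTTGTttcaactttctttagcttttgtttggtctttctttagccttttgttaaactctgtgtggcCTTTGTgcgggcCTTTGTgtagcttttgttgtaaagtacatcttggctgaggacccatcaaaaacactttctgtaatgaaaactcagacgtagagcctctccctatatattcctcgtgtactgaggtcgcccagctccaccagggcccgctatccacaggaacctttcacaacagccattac
Cnp, chr11:100574689-100574988, plus strand: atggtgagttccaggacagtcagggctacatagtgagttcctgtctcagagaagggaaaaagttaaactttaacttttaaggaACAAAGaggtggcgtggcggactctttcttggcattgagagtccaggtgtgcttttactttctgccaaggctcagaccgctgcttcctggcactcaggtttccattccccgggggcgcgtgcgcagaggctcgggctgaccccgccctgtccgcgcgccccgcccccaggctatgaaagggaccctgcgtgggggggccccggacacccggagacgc

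The Mobp window held 6 copies of ACAAAG, all read on the other strand, between 243 and 120 bases before the start site. The Cnp window held 1 copy, 167 bases before its start site, and the Mog and Cldn11 windows held none. ACAAAG was present in 4 of the 8 member windows (of Mobp, Cnp and 2 overlapping windows of Mag that share the same copy), against 18.7% of all 32851 windows. ACAATG was in 0 of 8 (12.6% of all windows). The E-box CANNTG, a motif of basic helix-loop-helix factors such as Olig1, was in 4 of 8 (72.3%), and TATAAA in 0 of 8 (13.6%). Both strands were searched, with CANNTG, which reads the same on both, counted once, and the motifs were searched separately, so that copies of different motifs can share bases. Mog and Cldn11, the closest pair in level, held neither Sox motif within these windows, and a match or its absence describes only the letters there.

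Before the results, 1 array has to be set apart. Mutant cocaine replicate 5, a Roman-numbered animal, had an actin 3 prime minus 5 prime difference of 3.59 on the log2 scale, a measure of how far the labelled RNA reaches from the 3 prime end of a message. The other Roman-numbered arrays lay between 1.57 and 1.91 and the Arabic-numbered ones between 1.89 and 2.55. Its mean correlation with the other arrays was the lowest, 0.966 against 0.976 to 0.990. Results that rest on this array are given with and without it. The Camk4 probe set 1426167_a_at read 7.14, 7.29 and 7.47 in mutants after saline against 7.59, 7.64 and 7.72 in controls. After cocaine it ran from 6.85 to 7.69 in mutants and from 7.52 to 7.76 in controls, which overlap when the numbering series are pooled. Within each series the mutants lay below the controls after cocaine. They read 7.23 to 7.29 against 7.52 to 7.62 in Arabic-numbered animals, and 6.85 to 7.69 against 7.72 to 7.76 in Roman-numbered ones. The difference averaged over treatments, mutant minus control, was -0.37 (SE 0.09) and did not pass limma's test (adjusted p = 0.611). The other kept Camk4 set, 1421941_at, read 4.95 to 5.17 in Arabic-numbered mutants after cocaine against 5.46 to 5.48 in controls. In Roman-numbered animals the genotypes overlapped, at 3.80 to 6.10 in mutants against 6.09 to 7.00 in controls. It is not known whether these probe sets lie in the deleted part.

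Defining genes of oligodendrocytes were detected on every array. All 9 genes had a kept probe set, and the probe set with the highest mean value of each gene (its brightest, used below wherever 1 value a gene is given) never fell below 7.33 on the log2 scale, that value being Sox10 in control cocaine replicate 5. Levels of different probe sets are not compared with each other, since hybridisation differs between them. Only the Sox10 probe set 1425369_a_at was dim, at 2.01 to 2.05 in all 18 arrays, and it was dropped by the filter. Of 12 listed precursor genes, 5 had a probe set past the filter, which 12674 of all 22690 probe sets passed. In tissue of mixed cells, fewer cells of a type and less RNA per cell cannot be told apart.

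Among the genes of compact myelin, Mbp 1433532_a_at was nearly constant. It read 14.57 ± 0.06 (SD, n = 3) in control saline, 14.56 ± 0.04 (n = 6) in control cocaine, 14.57 ± 0.03 (n = 3) in mutant saline and 14.60 ± 0.03 (n = 6) in mutant cocaine. This probe set sits close to the top of the scale, where the highest value of any probe set was 15.4, so changes in it may be compressed, which was not tested. Mobp 1433785_at read 12.59 ± 0.14, 12.61 ± 0.13, 12.67 ± 0.21 and 12.63 ± 0.17 in the same order of groups, with every group overlapping every other. Mal 1417275_at read 12.38 ± 0.15, 12.43 ± 0.04, 12.42 ± 0.13 and 12.44 ± 0.17. Cldn11 1416003_at ran from 10.61 to 11.41 over the 18 animals with group means of 10.96, 10.97, 10.86 and 11.06, each within 1 SD (0.20 to 0.25) of the others.

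The sheath surface genes Mog and Mag varied more from animal to animal than the brightest sets of Mbp, Mobp and Mal. Their spread was close to that of Cldn11, with an SD after group and numbering of 0.25, 0.27 and 0.23. Mog 1448768_at was 10.01, 9.60 and 9.59 in the control saline animals and 9.94, 9.57 and 9.85 in the mutant saline animals. After cocaine its lowest, median and highest values were 9.49, 9.77 and 9.97 in controls and 9.56, 9.84 and 10.45 in mutants. Control saline replicate 1 and mutant cocaine replicate 5 were the high animals, and all 4 groups overlapped. Mag 1460219_at was 9.53, 9.22 and 9.19 in control saline and 9.35, 9.54 and 9.32 in mutant saline. After cocaine the lowest, median and highest Mag values were 9.08, 9.37 and 9.62 in controls and 9.18, 9.56 and 10.31 in mutants. The same 2 animals led in their groups, with mutant cocaine replicate 5 the highest of all 18. Cnp 1437341_x_at read 13.59 ± 0.16, 13.63 ± 0.09, 13.70 ± 0.03 and 13.71 ± 0.14 in control saline, control cocaine, mutant saline and mutant cocaine.

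Of the transcription factors, Olig1 was tight and Sox10 was not. Olig1 1416149_at read 11.10 ± 0.05, 11.15 ± 0.05, 11.17 ± 0.07 and 11.24 ± 0.03 in control saline, control cocaine, mutant saline and mutant cocaine. The 3 control saline values, 11.06 to 11.16, lay below the 6 mutant cocaine values, 11.20 to 11.29, a pair of groups that differ in both genotype and treatment, while every other pair of groups overlapped. Sox10 1451689_a_at was 8.37, 8.11 and 7.99 in control saline and 8.19, 8.31 and 8.23 in mutant saline. After cocaine the lowest, median and highest Sox10 values were 7.33, 7.97 and 8.27 in controls and 7.86, 8.38 and 8.59 in mutants. The lowest 2 of all 18 values, 7.33 and 7.41, were Roman-numbered control cocaine animals, and the cocaine groups of both genotypes overlapped.

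**Figure D1:**
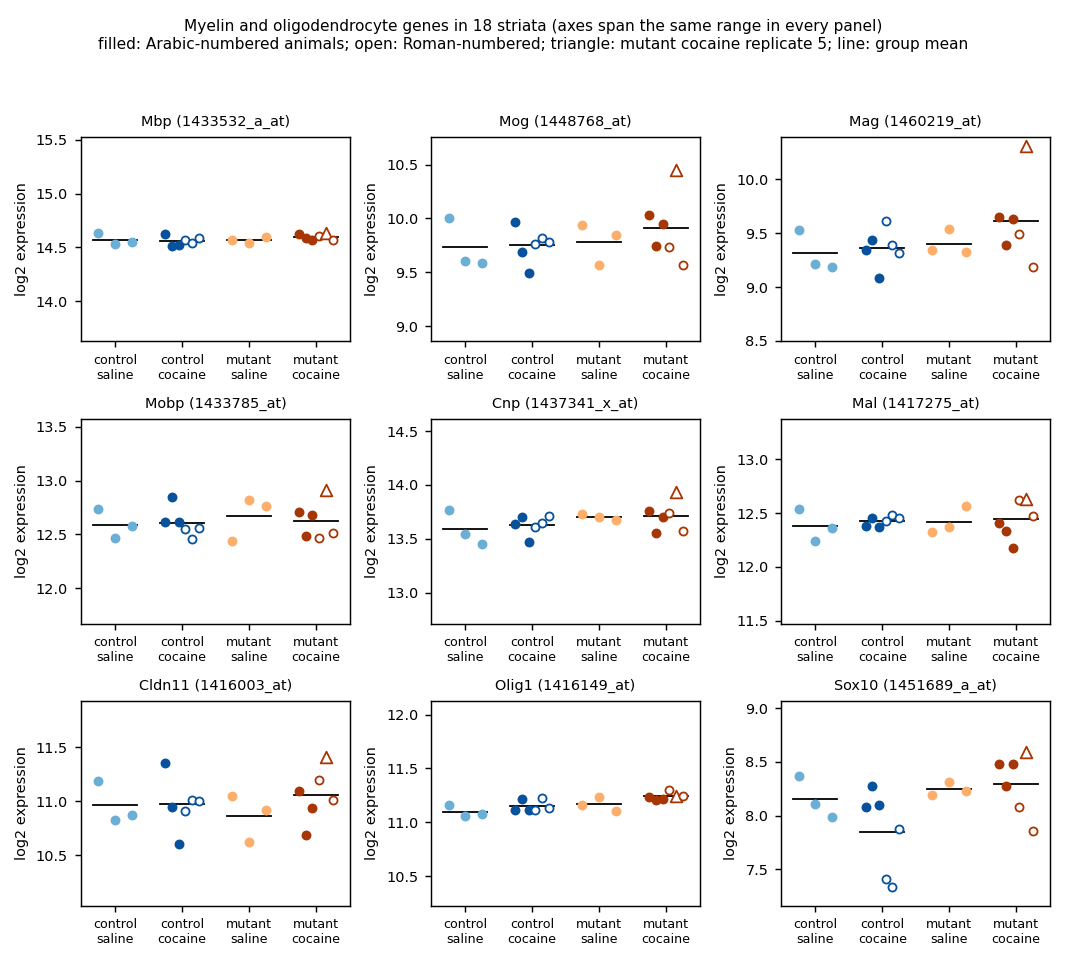
Log2 expression (y axis, spanning the same range in every panel) of the brightest probe set of each of the 9 genes in the 4 groups (x axis); each point is 1 animal, filled for Arabic- and open for Roman-numbered animals, the triangle is mutant cocaine replicate 5, and the line is the group mean. All pairs of groups overlap for the 9 genes, except control saline and mutant cocaine for Olig1, Mbp and Olig1 vary least, and the triangle is the highest point for Mog (10.45) and Mag (10.31).

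The design asks first whether cocaine changed these genes within 1 h. The test passed for none of them: 0 of the 22 member probe sets passed an adjusted p under 0.05 in limma's moderated test (Benjamini-Hochberg over all 12674 probe sets), averaged over genotypes, against 0.221% of all probe sets. Since every Roman-numbered animal was given cocaine, this averaged difference rests on the 12 Arabic-numbered animals once numbering is a term of the fit, and the other 6 enter only through the spread. No member reached an unadjusted p under 0.05 either, against 5.09% of all. The cocaine response itself was present in these animals, since 9 of 9 immediate early genes on a list rose, with a median difference of 2.57. Over the 22 member probe sets the median difference, cocaine minus saline, was 0.015 with a range of -0.50 to 0.12, beside a median of 4.01e-05 over all probe sets. For the brightest probe set of each gene, the difference ran from -0.05 for Mal to 0.08 for Sox10. The 95% intervals of all 9 genes lay within 0.5 of 0 on the log2 scale, from -0.24 to 0.37 at the widest. Of all 22 member probe sets, 17 had an interval within 0.5 of 0 and 20 within 1.

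The largest cocaine differences among the members were not in those brightest probe sets. Mbp 1451961_a_at read -0.50 (SE 0.28, adjusted p = 0.859 in limma), Mobp 1450088_a_at -0.39 (SE 0.22) and Mobp 1421010_at -0.22 (SE 0.13). The brightest sets of the same genes differed by 0.0022 (Mbp) and 0.025 (Mobp). Within each genotype the count was again 0 of 22, in controls beside 0.11% of all probe sets and in mutants beside 0.0473%. Unadjusted, 0 of 22 had a p under 0.05 in either genotype (2.6% of all probe sets in controls and 6.95% in mutants). In controls, 8 of 22 member probe sets were above 0 with a median of -0.012, and in mutants 11 of 22 with a median of 0.0037.

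The second question was whether loss of Camk4 changed them. The test passed for 0 of 22 member probe sets, both averaged over treatments and after saline or cocaine alone, and in each of these 3 comparisons 0% of all probe sets passed. Averaged over treatments, 4 of 22 members had an unadjusted p under 0.05 (7.13% of all probe sets did), all of them higher in mutants. These were Sox10 1451689_a_at (difference 0.27, SE 0.11), Cnp 1418980_a_at (0.17, SE 0.07), Mbp 1436201_x_at (0.11, SE 0.05) and Olig1 (0.08, SE 0.03), each at an adjusted p of 0.679 in limma. The median over members was 0.04, with a range of -0.30 to 0.27, beside 0.01 over all probe sets. The mutant mean was higher for 8 of the 9 genes, Cldn11 being the exception at -0.01 (0.031 with each array centred on its median). When mutant cocaine replicate 5 was left out, the median over members was 0.03. Cnp 1418980_a_at then read 0.14, Mbp 1436201_x_at 0.09 and Olig1 0.08.

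After cocaine the widest gap was that of Sox10. Sox10 1451689_a_at was higher in mutants by 0.45 (SE 0.13, 95% interval 0.19 to 0.72) and Sox10 1424985_a_at by 0.33 (SE 0.13), with an adjusted p of 0.427 for both in limma. These 2 and Olig1 (0.09, SE 0.03) were the 3 of 22 members under an unadjusted p of 0.05, where 11.6% of all probe sets lay. The Sox10 difference was 0.27 within the Arabic-numbered animals, 0.64 within the Roman-numbered ones and 0.34 without mutant cocaine replicate 5, and it passed the threshold in none of these. All 9 genes were above 0 after cocaine, with a median of 0.08, but without mutant cocaine replicate 5 Mobp read -0.05 and Mal -0.01, and within the Arabic-numbered animals Mobp read -0.065, Mal -0.097 and Cldn11 -0.066. Mag fell from 0.25 to 0.10 and Mog from 0.16 to 0.05 when that array was left out. After saline, 0 of 22 members had an unadjusted p under 0.05 (2.76% of all), with a median of 0.06.

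Whether cocaine acted differently in mutants was tested as an interaction. It passed for 0 of 22 members, as for 0% of all probe sets, and 0 of 22 had an unadjusted p under 0.05 (2.68% of all). The largest was that of Sox10 1451689_a_at, at 0.36 (SE 0.22, 95% interval -0.10 to 0.82, adjusted p = 0.992 in limma). Sox10 read -0.10 for cocaine minus saline in controls and 0.26 in mutants, neither past the threshold. When mutant cocaine replicate 5 was left out, these differences were -0.04 in controls and 0.21 in mutants. A joint test of any difference among the 4 groups also called 0 of 22 members (0.142% of all probe sets), with 2 under an unadjusted p of 0.05, Sox10 1451689_a_at and Olig1 (6.36% of all).

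**Figure D2:**
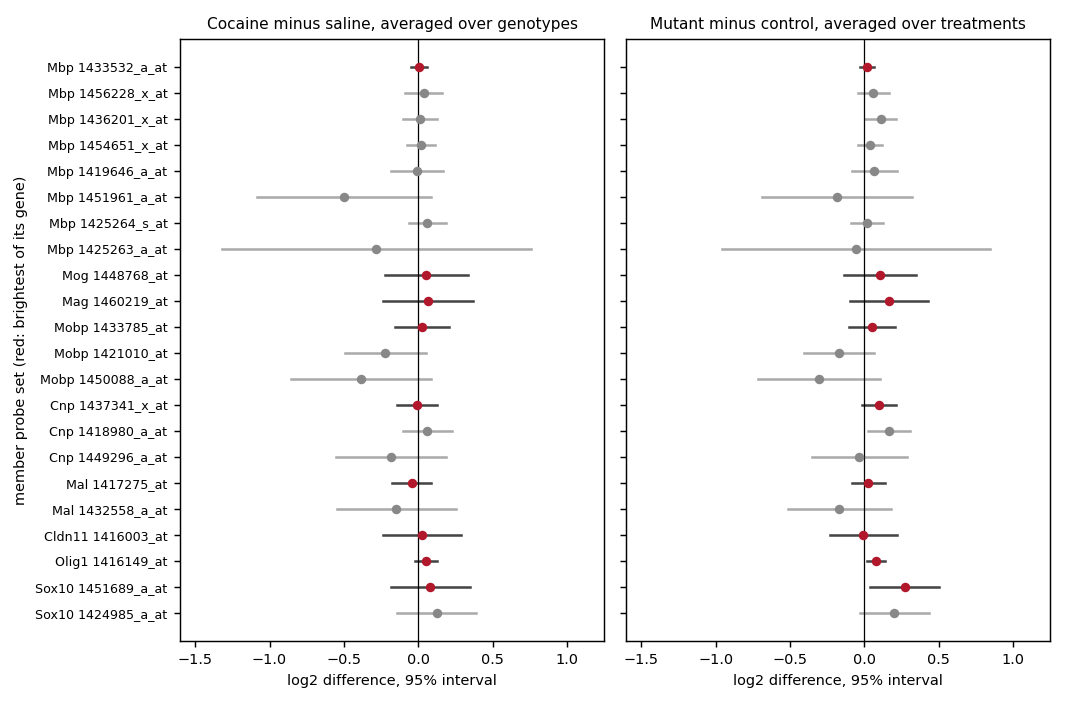
Log2 difference (x axis) with its 95% interval for each of the 22 member probe sets (y axis), for cocaine minus saline (left) and mutant minus control (right); red points are the brightest probe set of each gene, grey points the others. The red points lie between -0.05 and 0.08 on the left and between -0.01 and 0.27 on the right, while Mbp 1425263_a_at has the widest interval, -1.32 to 0.76 on the left.

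The members differed from each other in how far animals of the same group spread. The residual SD (after group and numbering) had a median of 0.19 over the 22 probe sets, beside 0.16 over all probe sets. Mbp 1433532_a_at had 0.04, a value that only 0.568% of all probe sets undercut, and Olig1 0.05 (1.39%). At the other end stood Mbp 1425263_a_at with 0.94, a dim probe set read between 3.02 and 6.39 (99.6% of probe sets had a smaller SD), and Mbp 1451961_a_at with 0.53 (95.9%). Mag, at 0.27, and Mog, at 0.25, were the most variable of the brightest sets with all arrays. This order rested on mutant cocaine replicate 5. Without it, the SE of the cocaine difference averaged over genotypes was 0.114 for Cldn11, 0.099 for Mog and 0.096 for Mag.

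The animals of a group tended to be high or low for many member genes at once. Each value was set against the mean of the 3 animals that share its group and numbering series. A high value in 1 of the 3 therefore goes with lower deviations in the others. The share of all genes above that mean was not counted in these animals, so a shift of a whole array was not set apart. Control saline replicate 1 was above that mean for 9 of 9 genes (median deviation 0.18), and the other 2 control saline animals were below it for all 9 (-0.10 and -0.09). Among the Arabic-numbered mutant cocaine animals, replicate 1 was above for 9 of 9 (0.09) and replicate 2 for 1 of 9 (-0.14). Mutant cocaine replicate 5 was above for 8 of 9 (0.21, up to 0.65 for Mag) and replicate 6 for 0 of 9 (-0.18). Control cocaine replicate 3 was above for 0 of 9 (-0.08), whereas the mutant saline animals split, with 4, 4 and 5 genes above.

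**Figure D3:**
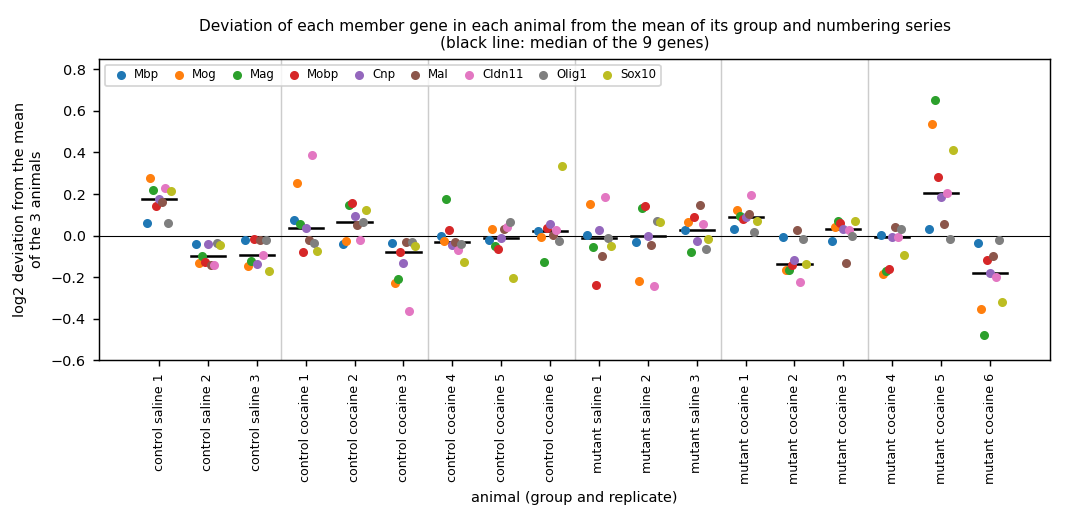
Deviation (y axis, log2) of each of the 9 genes (coloured points) from the mean of the 3 animals with the same group and numbering, for each of the 18 animals (x axis); the black line is the median of the 9 genes. Control saline replicate 1 and mutant cocaine replicate 1 have all 9 points above 0, and mutant cocaine replicate 6 has none.

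This covariation was measured for all 36 pairs of genes as the correlation of these deviations over 18 animals. Of 36 pairs, 34 had a Pearson r above 0, with a median of 0.47 and a range of -0.13 to 0.85, beside a median of 0.04 over all 28747153 pairs of genes measured, of which 12.1% exceeded 0.47. An exact two-sided permutation of animals within group and numbering, adjusted over the 36 pairs, called 9 pairs, all positive. The closest was Mog with Cldn11 (r = 0.85, Spearman rho = 0.94, exact permutation adjusted p = 0.00231), and the pair with the next lowest p was Cnp with Sox10 (r = 0.82, rho = 0.82, exact permutation adjusted p = 0.0166). The other 7 were Mog with Cnp (r = 0.83), Mag with Cnp (0.80), Mbp with Cldn11 (0.80), Mag with Mobp (0.76), Cnp with Cldn11 (0.73), Mbp with Mog (0.73) and Mobp with Sox10 (0.72). Cnp took part in 4 of the 9 called pairs and Mog and Cldn11 in 3 each. An r of at least 0.72 was reached by 10 member pairs and by 1.94% of all pairs of genes. By Spearman's rho, 8 pairs were called.

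Olig1 and Mal were each in 0 called pairs. The median r with the other 8 genes was 0.19 for Olig1 and 0.39 for Mal, beside 0.68 for Mog and for Cnp and 0.61 for Mag. Olig1, a factor kept from precursor to mature cell, and Mbp had the lowest r of all pairs, -0.13. Both have a small spread, so their deviations are a few hundredths of a log2 unit. Over the 12 Arabic-numbered animals the median r of the 36 pairs was 0.52 with 35 above 0, and over the 6 Roman-numbered animals 0.76 with 31 above 0. These 6 animals include mutant cocaine replicate 5, which deviated by up to 0.65 (Mag). In the Arabic-numbered animals alone 0 pairs were called, and with the mean over a gene's kept probe sets in place of its brightest 1 pair was called.

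Single animals carried part of this. Without mutant cocaine replicate 5, which was among the highest for most genes and had the high actin difference, the median r was 0.43 and 2 pairs were called, Mog with Cldn11 (r = 0.97, exact permutation adjusted p = 0.00694) and Cnp with Sox10 (r = 0.73, exact permutation adjusted p = 0.0498). Without the pair of animals farthest from the median of the x gene the median r was 0.40. Without control saline replicate 1, 1 pair was called. Leaving out control saline replicate 2 or 3, control cocaine replicate 3 or mutant cocaine replicate 4 or 6 left 3 pairs each, and leaving out mutant cocaine replicate 2 left 5. What differed between these animals was not tested.

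Probe sets of the same gene did not always rise and fall together over animals. The brightest Cnp set and 1418980_a_at had r = 0.95, and Mobp 1421010_at and 1450088_a_at had r = 0.90. Yet the brightest Mobp set, 1433785_at, had r = -0.09 and -0.32 with those 2, and Cnp 1449296_a_at had r = -0.08 and -0.22 with the other Cnp sets. The Mal sets had r = 0.24 and the kept Sox10 sets r = 0.73. Among the 28 pairs of Mbp sets, 16 were above 0 and r ran from -0.59 to 0.95. Without mutant cocaine replicate 5 the Mobp values were 0.47 and 0.41, the Cnp values 0.75 and 0.78 and the Mal value 0.78.

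**Figure D4:**
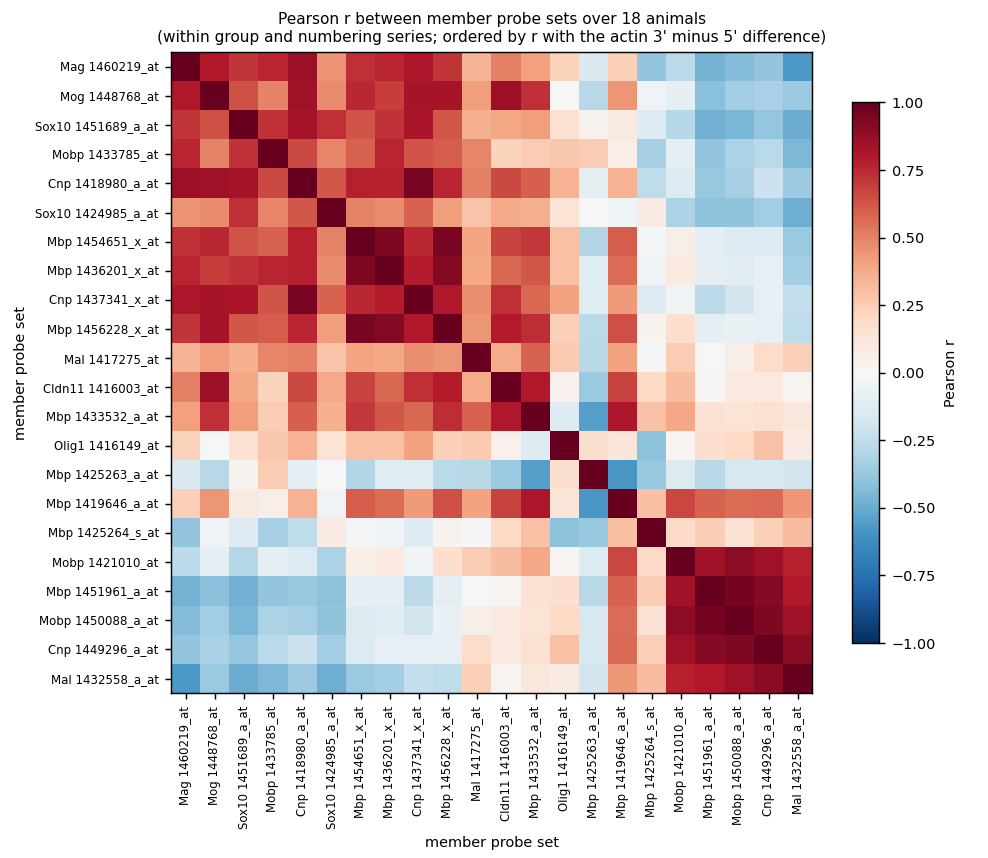
Pearson r between the 22 member probe sets (both axes) over 18 animals within group and numbering, red above 0 and blue below, ordered by r with the actin 3 prime minus 5 prime difference. The last 5 probe sets, of Mobp (2 sets), Mbp, Cnp and Mal, form a block of high r with each other, and Mag with Mal 1432558_a_at is among the bluest cells outside it.

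The 5 probe sets of that block moved with the actin difference of the arrays. Their r with it was -0.85 for Mal 1432558_a_at, -0.85 for Cnp 1449296_a_at, -0.84 for Mobp 1450088_a_at, -0.81 for Mbp 1451961_a_at and -0.70 for Mobp 1421010_at. An r below -0.7 was thus found in 22.7% of members and in 11.8% of all probe sets. In the other direction, 4 members had an r above 0.5, Mag (0.74), Mog (0.58), Sox10 1451689_a_at (0.57) and Mobp 1433785_at (0.54), as did 26.1% of all probe sets. None of these 22 relations passed an exact permutation test after adjustment, since the lowest adjusted p was 0.356. Without mutant cocaine replicate 5, 0 members and 1.34% of all probe sets were below -0.7. The 4 positive values were then below 0, at -0.20 for Mag, -0.54 for Mog, -0.24 for Sox10 1451689_a_at and -0.17 for Mobp 1433785_at.

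Mutant cocaine replicate 5 was at opposite ends for these 2 kinds of probe set. Mobp 1450088_a_at was 8.73 in this animal, the lowest of 18, and ran from 8.97 to 10.69 in the others. Cnp 1449296_a_at was 8.61 there, also the lowest, and Mal 1432558_a_at 8.30. In the same animal Mobp 1433785_at was 12.91 and Cnp 1437341_x_at 13.93, each the highest of 18. So the sign of the Mobp, Cnp and Mal deviations in this animal depended on the probe set read, and the part of RNA length in this was not tested.

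**Figure D5:**
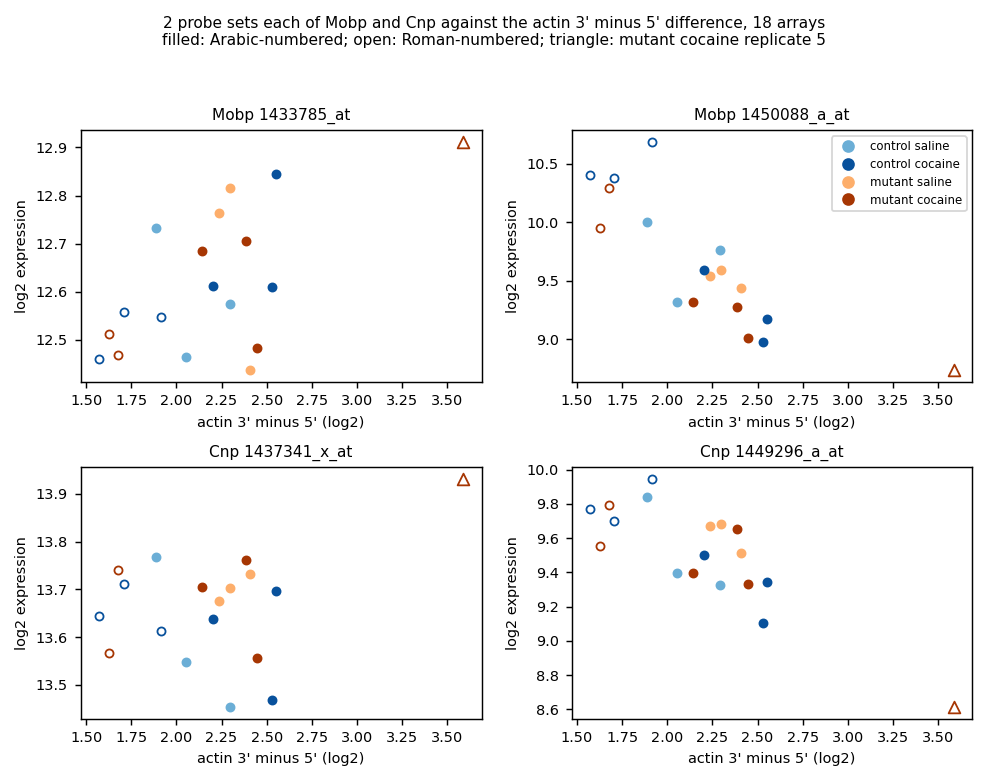
Log2 expression (y axis) of 2 probe sets of Mobp (top) and of Cnp (bottom) against the actin 3 prime minus 5 prime difference (x axis, log2) in 18 arrays; symbols as in the plot of levels by group. The triangle, mutant cocaine replicate 5 at 3.59, is the highest point in both left panels and the lowest in both right panels.

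The numbering series, which the labels do not explain, was compared within the cocaine groups. Roman- against Arabic-numbered animals differed in 2 of 22 members (9.09%), beside 6.16% of all probe sets. Both were Mobp sets and both were higher in Roman-numbered animals (2.54% of all probe sets were called higher and 3.62% lower), 1450088_a_at by 0.85 (SE 0.22, adjusted p = 0.0373 in limma) and 1421010_at by 0.52 (SE 0.13, adjusted p = 0.0276 in limma). Unadjusted, 6 of 22 members had a p under 0.05, beside 24.4% of all. Sox10 1451689_a_at read -0.42 (SE 0.13) and Mbp 1451961_a_at 0.89 (SE 0.28), neither past the threshold, at an adjusted p of 0.0551 and 0.0656 in limma. The Mobp 1450088_a_at values after cocaine were 10.69, 10.40 and 10.38 in the Roman-numbered controls and 9.59, 9.17 and 8.97 in the Arabic-numbered ones, which do not overlap. In mutants they were 10.29, 8.73 and 9.95 against 9.28, 9.01 and 9.32, and the Roman-numbered low value is again replicate 5.

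Without that replicate, 7 of 22 members (31.8%) differed by numbering, as did 29.8% of all probe sets. Of the 7, 5 were higher in Roman-numbered animals, Mbp 1451961_a_at (1.20), Mobp 1450088_a_at (1.10), Mal 1432558_a_at (0.73), Mobp 1421010_at (0.64) and Cnp 1449296_a_at (0.37). The other two were Sox10 1451689_a_at (-0.54) and 1424985_a_at (-0.34). The 5 that were higher are the 5 that had the lowest r with the actin difference, which was mostly smaller in these Roman-numbered arrays, and its part in these differences was not tested. The count with all arrays was 0 when any of control cocaine replicates 2 to 6 or mutant cocaine replicate 4 or 6 was left out, and 1 without mutant cocaine replicate 1 or 2.

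Other genes of the lineage also gave no call between groups with all arrays. Of 50 listed genes of oligodendrocytes and myelin, 34 were measured and 0 passed in any of the 7 comparisons between groups. Their median difference was 0.04 for cocaine minus saline, 0.11 for mutant minus control and 0.15 for mutant minus control after cocaine, or 0.10 without mutant cocaine replicate 5. The brightest, Qdpr, a dihydropteridine reductase enriched in oligodendrocytes, read 0.04 (SE 0.07) for cocaine, and Plekhb1 0.01 (SE 0.07). By numbering, 1 of the 34 passed, beside 6.16% of all probe sets. It was Tspan2, a tetraspanin of the myelin membrane, higher by 0.66 in Roman-numbered animals (SE 0.14, adjusted p = 0.0137 in limma). With mutant cocaine replicate 5 left out, Tspan2 (0.76) and Ugt8a (0.39) were called higher by numbering. Myrf (-0.29), Cryab (-0.62), Erbb3 (-0.57), Nkx2-2 (-0.73) and Josd2 (-0.28) were called lower, where 29.8% of all probe sets passed. Without mutant cocaine replicate 5, 1 of the 34 was higher after cocaine, averaged over genotypes, namely Olig2, the transcription factor that specifies the lineage (0.39, SE 0.08, adjusted p = 0.0199 in limma). With all arrays the difference of Olig2 was the same, with an SE of 0.11 and an adjusted p of 0.318 in limma. In that comparison without the replicate 2.86% of all probe sets passed (0.75% higher and 2.11% lower).

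Of the precursor markers, 0 of the 5 measured passed between groups. Pdgfra, the growth factor receptor that defines these cells, read -0.01 (SE 0.07) for cocaine and -0.04 (SE 0.06) for mutants. Tmem176a was lower in Roman-numbered animals, with a difference of -0.40 (SE 0.10, adjusted p = 0.0328 in limma). Markers of other cells that a dissection could hold passed nowhere between groups, with 0 of 14 astrocyte genes, 0 of 10 genes of medium spiny neurons (the main striatal neurons), 0 of 13 microglial, 0 of 7 endothelial, 0 of 4 cortical, 0 of 5 thalamic and septal and 0 of 2 choroid plexus genes called for cocaine, genotype or their interaction. By numbering, 2 spiny neuron genes were lower in Roman-numbered animals, Bcl11b, a transcription factor of these neurons, with a difference of -0.33 (SE 0.06, adjusted p = 0.00786 in limma) and Drd2, the dopamine D2 receptor, with -0.28 (SE 0.07, adjusted p = 0.0271 in limma). Of all probe sets, 3.62% were called lower by numbering. Without mutant cocaine replicate 5, 29.8% of all probe sets were called by numbering. The spiny neuron genes Bcl11b, Drd2, Penk and Foxp1, the precursor markers Cspg4 and Tmem176a and the endothelial gene Flt1 were then called lower. The microglial genes Itgam and P2ry12 were called higher. The mean level of the 10 spiny neuron genes per array lay between 12.44 and 12.79 in control cocaine and between 12.57 and 12.75 in the other groups.

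Over animals the members had their highest median r with the 34 other oligodendrocyte and myelin genes. That list is longer than the other lists, and the part of list length in this ranking was not tested. The mean level of the list correlated with all 9 member genes above 0, with a median r of 0.72 over 18 animals and a range of 0.44 to 0.92. That median was 0.61 without mutant cocaine replicate 5 and 0.62 over the Arabic-numbered animals. The highest were Cnp (r = 0.92, rho = 0.88) and Mag (r = 0.87, rho = 0.83), each at an exact permutation adjusted p of 0.0617 over 90 relations, so 0 of the 90 passed. Without mutant cocaine replicate 5 and control cocaine replicate 3, the 2 farthest from the list's median, Cnp had r = 0.89 and Mag r = 0.83. Over the Arabic-numbered animals Cnp had 0.89 and Mag 0.94. The median r was 0.46 with cortical neuron markers, 0.31 with astrocyte markers, 0.30 with endothelial markers, 0.27 with thalamic and septal markers, 0.0073 with precursor markers, -0.09 with immediate early genes, -0.18 with microglial markers and -0.28 with spiny neuron markers. With the actin difference it was 0.39. Leaving out mutant cocaine replicate 5 gave a median r of -0.24 with the actin difference, 0.14 with endothelial markers and -0.049 with precursor markers. The median was then -0.22 with immediate early genes, -0.050 with microglial markers and -0.10 with spiny neuron markers. With cortical neuron, astrocyte, and thalamic and septal markers it was 0.38, 0.30 and 0.21. The cortical list is short and the thalamic and septal list mostly dim, and how far they mark tissue outside the striatum was not tested.

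The genes outside the members whose deviations were most like theirs were ranked by mean r with the 9 members, over 18 animals and 7574 genes. The 10 highest were Ndrg1 (0.69), Fa2h (0.68), Rhog (0.66), Slc12a2 (0.66), Ttyh2 (0.66), Taldo1 (0.65), Ppp1r14a (0.65), Cd82 (0.65), Gjb1 (0.64) and Rffl (0.64). The median over all candidates was 0.08 and their 95th percentile 0.45. Fa2h, the hydroxylase that makes hydroxy fatty acids for myelin lipids, Gjb1, a gap junction connexin, Ppp1r14a and Cd82 stood on the list of other oligodendrocyte genes, which held 12 of the top 100. The 33 listed genes among the candidates had a median of 0.43. Without mutant cocaine replicate 5 the values of the 10 genes were between 0.55 and 0.63. The tenth highest value of all candidates was then 0.572. Cd82 (0.563), Gjb1 (0.557) and Rffl (0.545) fell below it, and so out of the 10 highest.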

How the data were processed

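Arrays were deposited by the authors as 1 table of log2 values made with GCRMA in R 2.4.1, per the submitters' processing notes, with settings not given in the sources used here. No counts stand behind array values, so the number of animals limits the precision. Affymetrix's own 64 control probe sets did not enter the tests. Probe sets with a log2 value above 4 on at least 3 arrays were fitted in limma 3.58.1 (R 4.3.3) on all 18 arrays with group and numbering series as terms (13 residual degrees of freedom), moderated with an intensity trend, and adjusted by Benjamini-Hochberg. The limma p-values set each difference against the moderated spread between animals. Over animals, deviations from the mean of each group and series (6 strata of 3) were correlated, with 46656 exact permutations. Every member probe set is reported, as are the 10 genes most like the members. From other lists, up to 4 genes past the threshold or the 2 brightest are given with all arrays. Without mutant cocaine replicate 5, every gene of the cell type lists called by numbering is named. The members and lists were chosen with earlier results of these data known. The numbering comparison, the actin relation of every probe set and the lists without mutant cocaine replicate 5 were added after seeing the data. The code was tested on simulated data.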

Additional observations from a re-analysis of the deposited data

How the results depend on the processing

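The count of member probe sets past the threshold was 0 in each of the 7 group comparisons and in the joint test under every alternative run: other filters, no numbering term, Arabic- or Roman-numbered arrays alone, only the groups compared, the replicate block, blocks of consecutive numbers, array weights, an actin term, other scalings, other moderation, an adjusted p under 0.1, and leaving out each of the 18 animals. With the replicate block it was 0 throughout, so the block changed no call. Replicate numbers were not taken as pairs: deviations from group means had an r over 0.1 in 10 of 21 same-numbered pairs (-0.50 to 0.63), and between the cocaine groups in 5 of 6, the exception being replicate 5, or in 2 of 6 with numbering removed as well. Single genes were recomputed for 3 comparisons only. Differences near 0 changed sign, with no call and with causes not tested. For cocaine averaged over genotypes, without the numbering term Mobp read -0.015, Cnp 0.023, Mal 0.035 and Sox10 -0.13; with array weights Mbp read -0.0021 and Cldn11 -0.034; with the actin term Mag read -0.0016 and Mobp -0.0091; centred on the median Cnp read 0.012; and as the mean of its probe sets Mbp read -0.083 and Mobp -0.19. For genotype averaged over treatments, Mal read -0.027 in Arabic-numbered animals, Cldn11 0.031 centred on the median, and as the mean of probe sets Mobp -0.14 and Mal -0.070. After cocaine, Arabic-numbered animals gave Mobp -0.065, Mal -0.097 and Cldn11 -0.066, array weights Mobp -0.041, the actin term Mobp -0.022 and Mal -0.0033, and the mean of probe sets Mobp -0.20 and Mal -0.11.

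Leaving out 1 animal gave, for cocaine, Mbp -0.014 to 0.018, Mog -0.0016 to 0.12, Mobp -0.034 to 0.066, Cnp -0.044 to 0.035 and Cldn11 -0.077 to 0.091; for genotype, Mal -0.0092 to 0.068 and Cldn11 -0.054 to 0.054; and after cocaine, Mobp -0.050 to 0.066 and Mal -0.013 to 0.053. The numbering count was 0 without a filter, 4 at an adjusted p under 0.1 and 6 with array weights, and 0 to 7 when 1 animal was left out. Called gene pairs were 0 in Arabic-numbered animals, 1 as means of probe sets, and 1 to 11 without 1 animal. Called relations with other measures were 3 with levels permuted freely, 1 by Spearman's rho, 3 centred on the median, and 0 to 3 without 1 animal.

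For the brightest probe sets the 95% intervals reached 0.72 (Sox10, mutant minus control after cocaine) and 0.82 (Sox10, interaction), and those of other probe sets were wider. The Roman-numbered animals were all given cocaine, so a cocaine difference within that series could not be estimated. The labels do not explain the numbering, so numbering and any batch of these animals cannot be told apart.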
